A study of Mus musculus with 6 samples.

Results

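The response of mouse embryonic stem cells to 6 h of cycloheximide was examined across all genes with enough counts to test. Members were the 12755 of 17484 named genes that passed a low-count filter, and the comparison used 4 of the 6 RNA-seq libraries of the series. The treated cells received cycloheximide at 250 µg/mL in 0.007% ethanol for 6 h, and the control cells received ethanol alone for 9 h, so drug and exposure time differed together. Both groups were the E14 line, a pluripotent stem cell line of 129/Ola background, grown in serum with leukaemia inhibitory factor (LIF) and treated 24 h after seeding. Each group had 2 libraries. The labels do not say that these came from separate cultures, so p-values measure the spread between libraries, which may be technical. The 3 h libraries of the series entered only the filter, the scaling and the estimate of spread. The series title calls the data bulk while its design text mentions single cells, and each file holds 1 column of counts, treated here as 1 bulk library.

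Cycloheximide binds the ribosome and stops translation elongation. Proteins that turn over quickly, among them transcriptional repressors, pathway inhibitors and RNA-binding decay factors, are then lost without replacement. Transcripts whose decay is coupled to their own translation can also persist. Cycloheximide has long been used for these reasons to expose genes that are held in check by labile proteins, and a late time point adds whatever follows from the loss of more stable ones. In bulk RNA, a lower level may reflect fewer transcripts per cell or fewer cells of a kind, which cannot be told apart here.

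The control libraries held 15423587 and 9385447 counts and the 6 h libraries 27351077 and 23121225, so that 3 counts, used as the floor of detection, corresponded to 0.222 and 0.366 CPM (normalised counts, scaled to a common library size by the trimmed mean of M values, TMM) in control and to 0.0989 and 0.115 CPM at 6 h. All 10 embryonic stem cell markers were tested, with summed levels of 6900 and 7070 CPM in control and 5570 and 5370 CPM at 6 h, and 5 of them were called lower. Of 8 fibroblast markers 2 could be tested, Col1a2 was at 0 in both controls, and their summed level stayed between 3.06 and 10.1 CPM in the 4 libraries. Neural markers summed to 342 and 330 CPM in control and 145 and 153 CPM at 6 h, and most of that difference lay in the tubulin gene Tubb3, with 262 and 266 CPM and 75.1 and 68.3 CPM, while the neural progenitor marker Nes rose from 3.63 and 1.95 to 8.44 and 10.7 CPM. Primitive endoderm markers summed to 104 and 103 CPM in control and 58.6 and 54.9 CPM at 6 h, and most of that difference lay in Sox7, which fell from 48.5 and 33.6 to 5.05 and 5.63 CPM. Lama1 was also called lower, and 5 of the 8 endoderm markers, Gata4, Gata6, Sox17, Pdgfra and Dab2, had values above 0 that were not called. Trophoblast markers summed to 23.1 and 21.2 CPM in control and 36.6 and 40.5 CPM at 6 h. That rise lay in Ascl2 and Tfap2c, both called higher, while Eomes, Krt18 and Hand1 had values below 0 that were not called. Mesoderm markers summed to 12.6 and 5.62 CPM in control and 8.58 and 8.89 CPM at 6 h. The sums of 2-cell-like markers were 5.11 and 5.86 CPM in control and 2.67 and 1.34 CPM at 6 h. What part other cell types had in the gene results was not tested.

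At 6 h, 3703 genes (29.0% of those tested) differed from control at an adjusted p under 0.05 (edgeR quasi-likelihood test, Benjamini-Hochberg over all tested genes). Of these, 1882 were higher (14.8% of tested genes) and 1821 lower (14.3%). The libraries of the groups did not overlap for 8522 genes (66.8%). Called gains were larger than called losses: 436 of the genes called higher changed at least 4-fold against 69 of those called lower. The median absolute log2 fold change was 1.17 for higher and 0.68 for lower calls. Of the higher calls, 240 were under the level of the low-count filter in both control libraries and passed through treated libraries. The median standard error (SE) was 0.915 in the lowest decile of mean CPM and 0.117 in the highest, so small changes were harder to call at low levels. What part these limits had in the difference in size was not tested. Most losses were modest, with 620 under 1.5-fold and 826 between 1.5-fold and 2-fold. The genes called higher took 5.58% and 5.35% of the nuclear-encoded signal in the control libraries and 12.9% and 13.2% at 6 h, whereas the genes called lower went from 51.3% and 52.6% to 40.1% and 38.9%. Of the 9052 genes that were not called, 1989 had a 95% interval within 1.5-fold of no change in either direction, and 4219 had an interval that reached 2-fold or more, so a missing call does not show that a gene was unchanged.

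All directions below are relative to the TMM scale, which sets most genes near no change, on which the median log2 fold change over tested genes was 0.04. Scaling by library size alone moved that median to 0.40 and called 4167 genes, and the share of calls that were higher went from 50.8% with TMM to 88.1%. The files hold no spike-in, so a general fall in RNA content cannot be told apart from the choice of scale, and for each list the value with library size alone is given too. The count of calls also rested on the 6 h libraries: it was 1792 without 6 h replicate 1 and 1312 without 6 h replicate 2, with 3 residual degrees of freedom in the complete fit.

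The direction of change followed the transcript's level. In the lowest decile of mean CPM the median log2 fold change was 0.70, and 10.4% of genes were called higher against 0.941% lower. In the highest decile the median was -0.34, and 8.07% were called higher against 45.7% lower. The medians fell at each step between these deciles and crossed 0 between the seventh and eighth, at 36.7 CPM. After thinning all libraries to the depth of the shallowest, the medians were 0.91 in the lowest decile, where 557 genes could still be tested, and -0.33 in the highest. With library size alone the same order of medians held, from 1.05 to 0.02. The calls in the highest decile then leaned the other way, with 20.9% higher and 11.1% lower. Part of the low end follows from the filter, because 754 tested genes were under the filter level in both control libraries and passed through treated libraries, and 240 of these were called higher.

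**Figure D1:**
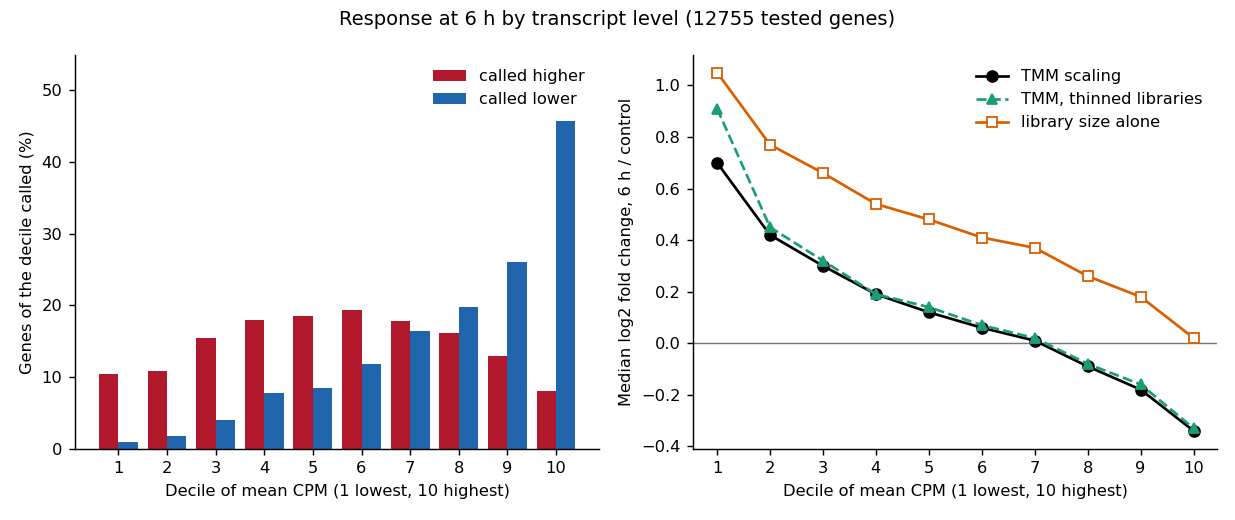
Left, the share of genes called higher (red) or lower (blue) at 6 h in each decile of mean CPM, out of 1275 or 1276 genes a decile. Right, the median log2 fold change of each decile with TMM scaling, with TMM scaling of thinned libraries and with library size alone. The medians run from 0.70 to -0.34 with TMM and from 1.05 to 0.02 with library size alone. On the TMM scale 45.7% of the highest decile was called lower, against 11.1% with library size alone.

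Copies of the pentamer ATTTA in the 3′ UTR went with higher levels at 6 h. AU-rich elements built from this pentamer are bound by decay factors such as the tristetraprolin family, which recruit deadenylases, and cycloheximide is known to stabilise many such transcripts. Of 12064 coding genes with an annotated 3′ UTR, 67.5% had at least 1 copy. Genes with no copy were called higher in 10.3% and lower in 16.4% of cases, with a median log2 fold change of -0.07. Those with 6 or more copies were called higher in 19.6% and lower in 11.6%, with a median of 0.19. Long 3′ UTRs hold more copies by length alone (median length 370 bases with no copy and 3218 bases with 6 or more). Within the tertile of genes with the longest 3′ UTRs, 18.9% were called higher with 4 or more copies (n = 2515) against 7.51% with none (n = 213). Within the tertile of highest expression, the medians were -0.01 with 6 or more copies and -0.29 with none. The order was the same with library size alone, where these medians were 0.34 and 0.07.

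The longer nonamer TTATTTATT, the core of a strong AU-rich element, occurred in 7.50% of these 3′ UTRs. It was found in genes that changed in opposite directions, as the following 30-base stretches show for 3 genes that rose and 3 that fell. Each is given 5′ to 3′ on the transcribed strand with the nonamer in capitals, from GENCODE M21 transcripts on GRCm38, and each is written as a site by sequence only.
Pfkfb3 (rose), chr2:11472043-11472072, minus strand: gatgtgctatTTATTTATTtaatatgtata
Relt (rose), chr7:100846229-100846258, minus strand: atcccatttcTTATTTATTgaaacctgctg
Atg16l1 (rose), chr1:87792342-87792371, plus strand: ggcacatcttTTATTTATTtaattatgtgt
Mat2a (fell), chr6:72433187-72433216, minus strand: ttctaattgcTTATTTATTgtattctgggg
Notch1 (fell), chr2:26459161-26459190, minus strand: taaatgctgtTTATTTATTgattgcttctt
Chac1 (fell), chr2:119353773-119353802, plus strand: acttgaacctTTATTTATTgcaccatgttg
Of the 707 genes with 1 nonamer 19.7% were called higher and 10.9% lower, and of the 11159 genes without it 14.0% and 14.7%. The 6 genes were chosen from the named genes after their values were seen, to show both directions.

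**Figure D2:**
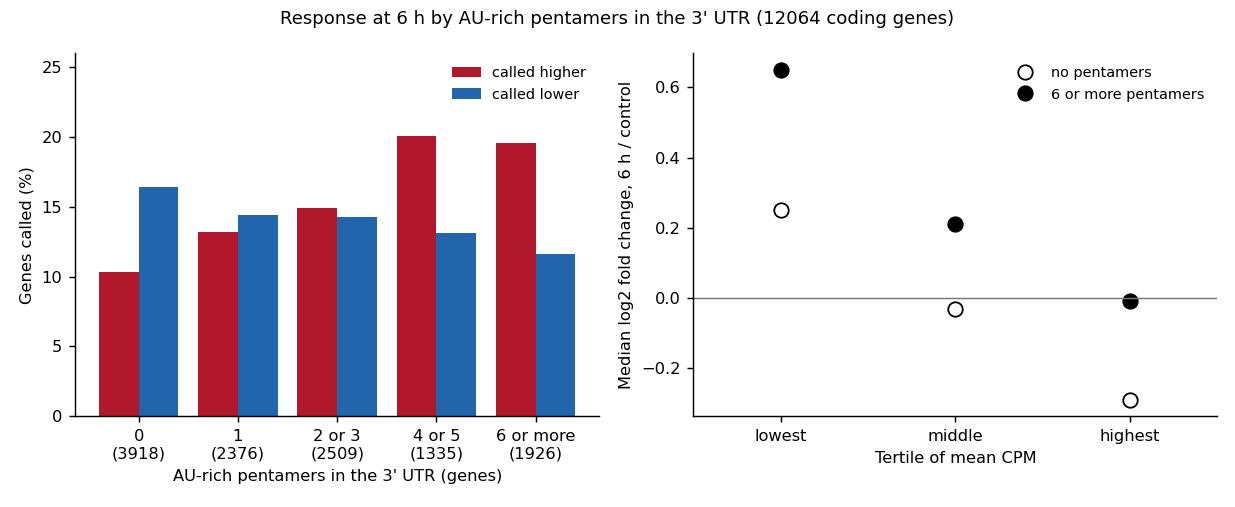
Left, the share of coding genes called higher (red) or lower (blue) by the number of AU-rich pentamers in the 3′ UTR, with the number of genes in brackets; the higher share goes from 10.3% with none to 19.6% with 6 or more. Right, the median log2 fold change of genes with none (open) and with 6 or more (filled) in each tertile of mean CPM on the TMM scale; the filled points lie above the open ones in all 3 tertiles.

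Calls also differed by other transcript features, in comparisons that were not matched for level. The median of mean CPM was 6.59 for coding genes with 1 exon and 15.6 for those with more. Genes with 1 exon were called higher in 28.8% and lower in 4.86% of 288 cases, and in 26.4% and 5.36% of 261 cases once histone genes were left out. Transcripts in the shortest quintile (up to 1733 bases) were called lower in 23.0% and higher in 9.47%, and those in the longest quintile in 11.4% and 16.6%. Genes with an annotated nonsense-mediated decay transcript differed little from the rest, with medians of 0.06 and 0.03. Long non-coding RNAs had a median of 0.65, with 57 of 265 called higher and 13 lower. The lowest decile of mean CPM had a similar median, 0.70. Their median SE was 0.612, against 0.228 over all genes. Counts of annotated small nucleolar RNAs went lower, with 16 of 34 called lower, 0 higher and a median of -1.75. This class as annotated includes Mir1949, which was called lower. Called members ranged from Scarna9, with 15 and 6 counts in control and 0 and 1 at 6 h, to Snora75, with 458 and 175 and 151 and 322. The libraries were of polyadenylated RNA, and what part of each small nucleolar RNA they capture was not tested. Chromosome 13, which carries the largest histone cluster, had 21.7% of its 460 tested genes called higher, and 19.0% of 411 without histone and Zfp genes.

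Transcripts made inside mitochondria fell broadly: 16 of the 22 tested genes of the mitochondrial chromosome were called lower and 0 higher, with a median of -0.98. The share of all counts from this chromosome was 24.66% and 24.85% in control and 17.45% and 16.61% at 6 h. The largest fall among the protein-coding members was that of mtNd6, the messenger encoded on the strand opposite to the others. It measured 84.1 and 74.1 CPM in control and 17.3 and 12.6 CPM at 6 h (log2 fold change -2.40 ± 0.24, SE). The ribosomal RNA mt-Rnr2 was not called, with 22554 and 6684 CPM in control and 13270.0 and 15548 CPM at 6 h, and the treated libraries lay between the controls.

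The 47 pathway and family lists placed 2349 of the tested genes, and 73.2% of all calls fell outside every list. List counts below on the TMM scale are to be read against the 14.8% higher and 14.3% lower over all genes. Those with library size alone are to be read against the 4167 calls over all genes on that scale, 88.1% of them higher. Calls over all genes also fell without either 6 h library, as given above, so a fall within a list is not particular to it. Shares also followed level, with 26.1% of genes called lower in the ninth decile of mean CPM and 45.7% in the highest on the TMM scale. With library size alone these lower shares were 6.75% and 11.1%. Only the Zfp list was compared with other genes at the same level. For the other lists, how much of a lower or higher share went with level was not tested. Families inside a list were singled out after their values were seen. Most single members named below were called genes with the smallest p of their list, so non-overlap in them was largely set by the choice. Over all tested genes, groups did not overlap for 66.8%. For every list the change without single libraries is given where it exceeded 1.5 times, except for counts of 3 or fewer.

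**Figure D3:**
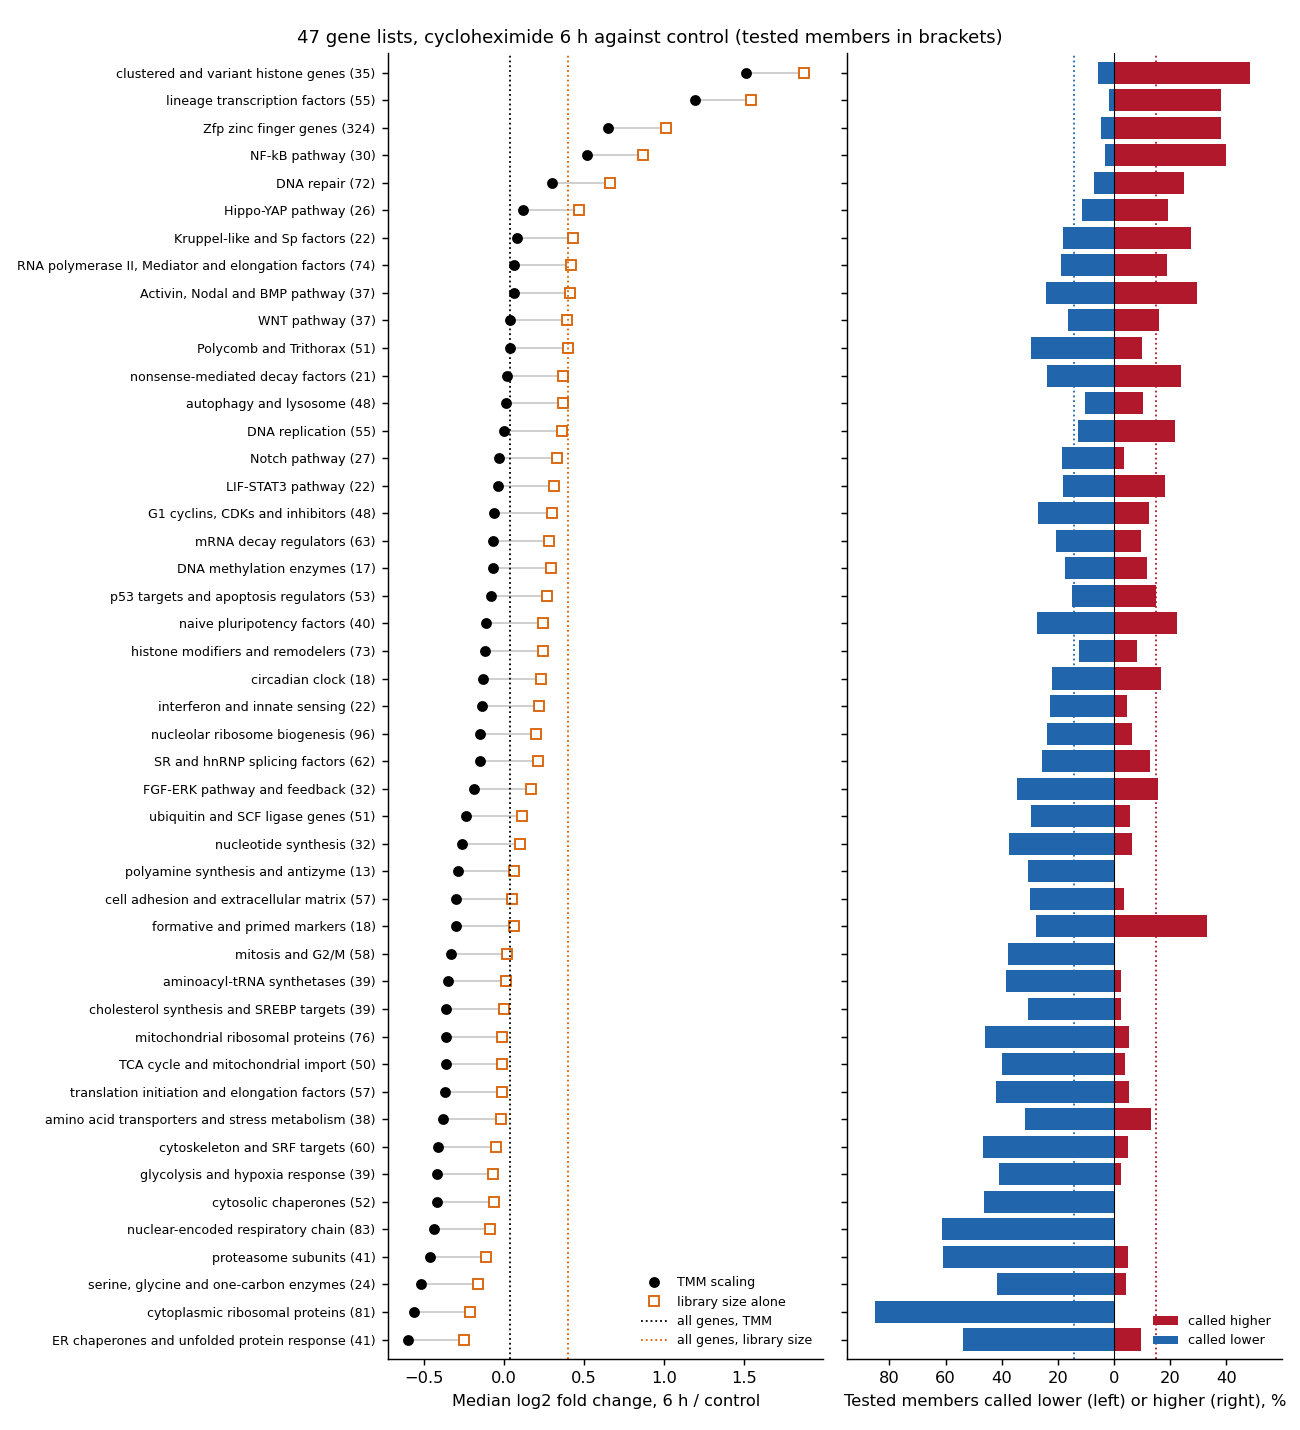
The 47 lists with the number of tested members in brackets, ordered by median. Left, the median log2 fold change with TMM scaling (filled) and library size alone (open), with dotted lines at the all-gene medians of 0.04 and 0.40; right, the share of members called lower (left, blue) or higher (right, red), with dotted lines at 14.3% and 14.8%. Ribosomal protein, proteasome and respiratory chain lists have the largest lower shares on the TMM scale, and histone, NF-kB, lineage factor and Zfp lists the largest higher shares.

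Genes of the BMP and TGF-β family changed in both directions. The Id genes encode helix-loop-helix proteins that lack a DNA-binding region and are classic BMP targets. Id3 measured 32.8 and 33.5 CPM in control and 194 and 174 CPM at 6 h, and rose by 2.48 ± 0.12 on the log2 scale (SE; edgeR adjusted p = 2.31e-05). Id2 went from 36.1 and 44.1 to 144 and 149 CPM and Id4 from 15.6 and 11.1 to 32.2 and 33.8 CPM, with log2 fold changes of 1.87 and 1.29. Their relative Id1 moved the other way, from 544 and 624 to 282 and 288 CPM (log2 fold change -1.03 ± 0.11, SE). In none of the 4 did control and treated libraries overlap. Bmp4, which encodes a ligand of this pathway, fell from 422 and 462 to 206 and 227 CPM, and Inhbb, an activin subunit gene, from 83 and 85 to 19.5 and 22.4 CPM, without overlap in either gene. The Nodal antagonist gene Lefty1 had a log2 fold change of -1.68, while the receptor gene Acvr1 and the activin antagonist gene Fst rose, by 1.54 for Acvr1 and from 6.96 and 4.03 to 14.3 and 17.5 CPM for Fst. In all, 11 of 37 tested members were higher and 9 lower, with a median of 0.06 (0.41 with library size alone, with 16 higher and 5 lower). These counts were 6 and 6 without 6 h replicate 2.

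Most genes of the FGF-ERK pathway that changed on the TMM scale were lower. Stem cells make FGF4 themselves, and Sprouty proteins are ERK-induced inhibitors of the same route. Spry4 fell from 335 and 348 CPM to 98.7 and 76.8 CPM, a log2 fold change of -1.96 ± 0.14 (SE; edgeR adjusted p = 0.000104). Fgf4 fell from 192 and 183 to 75.2 and 76.9 CPM and Spry2 from 122 and 114 to 62 and 51.3 CPM, both without overlap. Of 6 Sprouty and Spred genes 3 were lower and 0 higher. Lrig3, a leucine-rich repeat membrane protein gene, rose from 31.4 and 25.4 to 81.7 and 82.6 CPM, with a log2 fold change of 1.53 ± 0.15 (SE). The list had 11 of 32 members lower and 5 higher (median -0.19, or 0.17 with library size alone, where 4 were lower and 7 higher). On leaving out 6 h replicate 2, 5 were lower and 2 higher, and the higher count was 2 without 6 h replicate 1 and 3 without control replicate 2. Fgfr2, a receptor gene, rose by 2.94 on levels of 0.741 and 5.74 CPM in control and 21.8 and 23.2 CPM at 6 h, and that value was 1.97 without control replicate 1 and 4.92 without control replicate 2.

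The LIF pathway, which maintains self-renewal through STAT3, changed member by member. Its feedback inhibitor gene Socs3 fell from 92.9 and 94.3 to 54.2 and 57.4 CPM (log2 fold change -0.75 ± 0.11, SE), and the kinase gene Pim3 from 109.8 and 104 to 67.1 and 53.4 CPM. The relative Pim2 rose from 6.22 and 5.01 to 16.8 and 13.1 CPM. Stat3 rose from 349 and 292 to 489 and 500.0 CPM (0.63), a call that ended without 6 h replicate 2. Of 22 members 4 were higher and 4 lower (median -0.04, or 0.31 with library size alone, with 9 higher and 3 lower); the higher count was 2 without 6 h replicate 1 and 1 without 6 h replicate 2.

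WNT and Notch genes included receptors that fell. Lgr4, a receptor for R-spondins, went from 53.7 and 73.8 CPM to 17.8 and 17.2 CPM, a log2 fold change of -1.86 ± 0.19 (SE; edgeR adjusted p = 0.000499). Of 7 tested Frizzled receptor genes 3 were higher and 2 lower. Fzd5 fell from 77.8 and 82.9 to 35.3 and 39.4 CPM and Fzd7 from 51.5 and 56.7 to 25.6 and 33.4 CPM. Fzd3 rose by 1.05, a call that ended without 6 h replicate 2. The WNT list had 6 higher and 6 lower of 37 (median 0.04, or 0.39 with library size alone, with 8 higher and 3 lower), and 1 higher and 3 lower without 6 h replicate 1 or without 6 h replicate 2. In the Notch list 5 of 27 were lower and 1 higher (median -0.03, or 0.33 with library size alone, with 6 higher and 3 lower), and 3 lower without any 1 of control replicate 2, 6 h replicate 1 and 6 h replicate 2. Hes1, the main Notch-driven repressor gene, fell from 270.1 and 273 to 119 and 104 CPM (log2 fold change -1.28 ± 0.11, SE), and the receptor gene Notch1 from 11.4 and 13.7 to 4.09 and 5.1 CPM. The ligand gene Dll1 rose from 9 and 0 counts in control to 236 and 260 counts at 6 h, and its log2 fold change was 4.45, or 10.43 without control replicate 1 and 3.72 without control replicate 2.

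NF-kB genes were higher in 12 of 30 cases and lower in 1 (median 0.52, or 0.87 with library size alone, with 19 higher and 1 lower). This pathway is held off by short-lived inhibitor proteins and induces its own inhibitors. Icam1, an adhesion molecule gene and standard target, rose from 61 and 63.9 to 199 and 189 CPM (log2 fold change 1.64 ± 0.11, SE; edgeR adjusted p = 8.07e-05). The inhibitor gene Tnfaip3 rose from 6 and 2 counts to 242 and 131 counts, and Relt, a TNF receptor family gene, from 4.52 and 5.5 to 19.5 and 16.7 CPM. Nfkbia, the gene of the main inhibitor, rose by 1.10, and of 5 subunit genes 2 were higher and 0 lower. Nfkbid, an atypical inhibitor gene, fell from 16.4 and 14.5 to 2.28 and 4.6 CPM. Of the higher members 3 were under the filter level in both controls. The higher count was 4 without 6 h replicate 2 and 8 without any 1 of the other 3 libraries. In the Hippo-YAP list the secreted targets Ctgf and Cyr61 rose from 10.1 and 9.28 to 36.8 and 35.4 CPM and from 7.63 and 11.2 to 21.1 and 24.7 CPM, with 5 of 26 members higher and 3 lower (median 0.12, or 0.47 with library size alone, with 10 higher and 0 lower). These Hippo-YAP counts were 2 higher and 0 lower without 6 h replicate 2. Interferon-related genes had 1 member higher and 5 lower of 22 on the TMM scale but 4 higher and 1 lower with library size alone (medians -0.14 and 0.22), and Trim25, a ubiquitin ligase gene of RNA sensing, fell by 2.25; without control replicate 1 or 6 h replicate 2 the lower count was 2 and without 6 h replicate 1 it was 3.

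**Figure D4:**
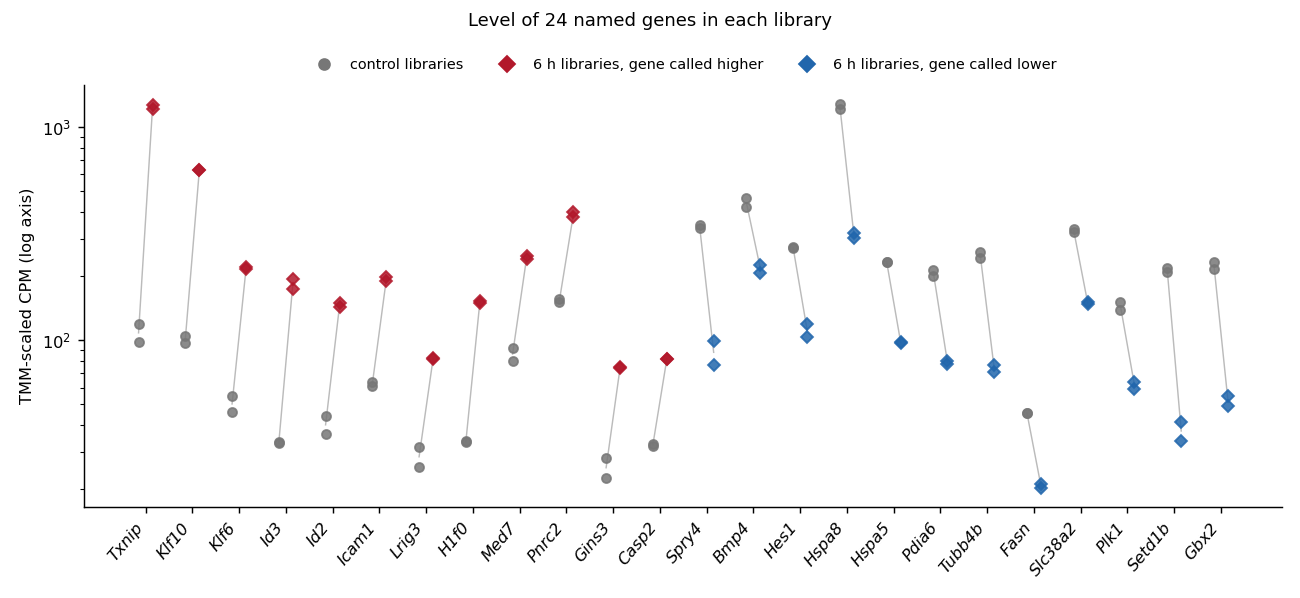
TMM-scaled CPM of 24 named genes in each control library (grey circles) and each 6 h library (red diamonds for genes called higher, blue for lower) on a log axis, with a line joining the group means. For each of the 24 genes the 6 h libraries lie wholly above or wholly below the controls. They were picked from the named genes, which were called, so this was largely set by the choice. Groups did not overlap for 66.8% of all tested genes. Txnip reaches 1273 and 1221 CPM and Setd1b falls to 33.7 and 41.4 CPM.

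Genes of cytosolic and mitochondrial chaperones that changed on the TMM scale were lower. Hspa8, which encodes the main constitutive Hsp70 of the cytosol (chr9:40800984-40810087, plus strand), measured 1218 and 1279.6 CPM in control and 303 and 319 CPM at 6 h. Its log2 fold change was -2.01 ± 0.11 (SE; edgeR adjusted p = 3.04e-05). The mitochondrial chaperonin genes Hspe1 and Hspd1 fell from 1592 and 1708 to 996 and 878 CPM and from 547 and 569 to 326 and 339 CPM. All 8 subunit genes of the TRiC chaperonin, which folds actin and tubulin, were called lower, within a narrow range of -0.62 to -0.40; with library size alone their median was -0.14 and 0 were called lower. Of all 52 cytosolic chaperone genes 24 were lower and 0 higher (median -0.42, or -0.06 with library size alone, with 6 lower and 4 higher). In fits without 6 h replicate 2, 12 were lower, and 5 were higher without control replicate 1.

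The endoplasmic reticulum list had the lowest median of the 47, at -0.60 (-0.25 with library size alone). The lumenal chaperone gene Hspa5 fell from 234 and 233 to 98.1 and 97.5 CPM (log2 fold change -1.25 ± 0.11, SE), Hsp90b1 from 155 and 153 to 68.3 and 64.4 CPM, and the disulfide isomerase gene Pdia6 from 201 and 213 to 80.3 and 77.3 CPM. Xbp1, a transcription factor gene of the unfolded protein response, had a log2 fold change of -1.55, and the lectin chaperone gene Calr -1.17. Against these, the selenoprotein gene Vimp rose from 15.6 and 18.8 to 37.3 and 40.9 CPM, and Ddit3 and the sensor gene Atf6 by 1.38 and 0.64, calls that both ended without either 1 of the 6 h libraries. In total 22 of 41 were lower and 4 higher, and with library size alone 8 and 6. Without 6 h replicate 1 or 2 the lower count was 11 or 10, and the higher count was 1 in both cases.

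Many genes of the proteasome were lower by small amounts on the TMM scale. In the core particle, 13 of 14 subunit genes were called lower, between -0.82 and -0.33, and in the regulatory cap 8 of 17. Psma5 measured 371 and 408 CPM in control and 222 and 223 CPM at 6 h, and Psma3 516 and 501 and 299 and 324 CPM, with no overlap in either. The whole list had 25 of 41 lower and 2 higher (median -0.46), but with library size alone 3 lower and 2 higher (median -0.11). On leaving out 6 h replicate 1 or 2, 8 or 4 were lower and 0 higher. Ubiquitin pathway genes were lower in 15 of 51 cases and higher in 3 (median -0.24, or 0.11 with library size alone, with 10 higher and 3 lower), among them Ccnf, an F-box protein gene of SCF ligases, which fell from 124 and 113 to 72 and 65.7 CPM; Ubr1, a ligase gene of the N-degron pathway, rose from 63.4 and 70.2 to 119.9 and 114 CPM. The lower count was 9 or 6 without 6 h replicate 1 or 2. Autophagy and lysosome genes were split, 5 higher and 5 lower of 48 (median 0.01, or 0.37 with library size alone, with 18 higher and 2 lower). Atg12 and Atg16l1, of the conjugation system that builds autophagosomes, rose from 48.1 and 55.3 to 109 and 126 CPM and from 24.2 and 23.7 to 43 and 47.5 CPM, while the receptor gene Sqstm1 fell from 230.1 and 295 to 135 and 126 CPM. In fits without 6 h replicate 1 or 2, 2 or 3 were higher and 3 or 2 lower, and without control replicate 2, 3 were lower.

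Most genes of the translation apparatus that changed on the TMM scale were lower. Cytosolic tRNA synthetase genes and their mitochondrial counterparts stood apart: 12 of 20 cytosolic members were lower and 0 higher (median -0.52), against 1 of 17 lower and 1 higher among the mitochondrial ones (median 0.09). With library size alone these medians were -0.16 and 0.45. This difference between the families was not tested. Aimp1, a scaffold gene of the multi-synthetase complex, fell from 60 and 55.2 to 25.5 and 23.7 CPM (log2 fold change -1.23 ± 0.14, SE; edgeR adjusted p = 0.000783). Etf1, the release factor gene, fell from 367 and 414 to 241 and 234 CPM. The helicase gene Eif4a2 rose from 249 and 189.7 to 508 and 479 CPM, a log2 fold change of 1.17 ± 0.14 (SE). Of 57 translation factor genes 24 were lower and 3 higher (median -0.37), and of 39 synthetase genes 15 lower and 1 higher (median -0.35). With library size alone 2 translation factor genes were lower and 6 higher, and 1 synthetase gene was lower and 7 higher (medians -0.01 and 0.01). On that scale the median over all genes was 0.40 and 88.1% of all calls were higher. The lower counts were 13 and 7 without 6 h replicate 1, and 6 and 1 without 6 h replicate 2.

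Ribosome components and their assembly factors differed in extent. Among 81 cytoplasmic ribosomal protein genes 69 were lower, with 11 lower and 1 higher under library size alone (medians -0.56 and -0.21) and 42 lower without 6 h replicate 2. Rps6 measured 4246 and 4510.2 CPM in control and 2623 and 2470.3 CPM at 6 h. These genes, like Npm1, Hsp90ab1 and histone genes, have near-identical copies, so their counts are uncertain. The 96 nucleolar assembly genes had 23 lower and 6 higher, with a median of -0.15 (0.20 with library size alone, where 5 were lower and 25 higher). Imp3, a processome gene, fell from 36 and 39.7 to 15.4 and 13.2 CPM, while Taf1d, of the RNA polymerase I initiation complex, rose from 103 and 55.4 to 239.7 and 263 CPM and Tsr1, of small-subunit maturation, from 27 and 22.8 to 47.7 and 59.9 CPM. Mitochondrial ribosomal protein genes were lower in 35 of 76 cases and higher in 4 (median -0.36, or -0.01 with library size alone, with 5 higher and 10 lower). Mrpl14 fell furthest, from 63.5 and 68 to 26.1 and 19.2 CPM, and Mrpl9 rose from 21.8 and 18.7 to 37.5 and 43.3 CPM. The nucleolar higher count was 2 without 6 h replicate 1 or 2 and 3 without control replicate 2, and that of mitochondrial ribosomal genes was 1 without 6 h replicate 1 or 2 and 2 without control replicate 2. Leaving out 6 h replicate 1 or 2 left 10 or 6 nucleolar and 14 or 11 mitochondrial ribosomal genes lower.

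Splicing regulators changed by family. Of 4 CLK kinase genes, whose products phosphorylate SR splicing factors, 3 were higher: Clk1 by 1.16, Clk4 from 12.6 and 9.4 to 30.4 and 29.1 CPM, and Clk2 from 49.3 and 48.8 to 86.8 and 81.4 CPM. Rbm5, a regulator of alternative splicing, rose from 29 and 30.2 to 67.2 and 71.1 CPM (log2 fold change 1.22 ± 0.15, SE; edgeR adjusted p = 0.00134). Of 18 tested Hnrnp genes 10 were lower and 1 higher, with Hnrnpu falling from 625 and 689 to 394 and 413 CPM and Hnrnpa1 higher only while control replicate 1 and both 6 h libraries were kept; with library size alone 2 were lower and 2 higher. Srsf genes were called in 1 of 10 cases. For the whole list the counts were 8 higher and 16 lower of 62 (median -0.15, or 0.21 with library size alone, with 20 higher and 2 lower), and the lower count was 7 or 9 without 6 h replicate 1 or 2.

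Nonsense-mediated decay destroys transcripts with premature stops and depends on translation, and several of its factor genes are themselves its targets. Pnrc2, an adaptor to the decapping enzyme, rose from 156 and 151 to 379 and 399.5 CPM (log2 fold change 1.34 ± 0.10, SE; edgeR adjusted p = 0.000162). Upf2, a core factor, rose from 41.5 and 38.1 to 76.9 and 100 CPM and Casc3, of the exon junction complex, from 27.7 and 25.9 to 53.9 and 60.1 CPM. Smg8, which encodes a regulator of the SMG1 kinase, fell from 129 and 157 to 82.9 and 79.5 CPM. The list was even, with 5 of 21 higher and 5 lower (median 0.02, or 0.37 with library size alone, with 7 higher and 1 lower); without 6 h replicate 2 it had 3 higher, and without either 6 h library 2 lower.

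Among other decay regulators, an AU-rich element binding protein gene and an endonuclease gene were lower. Zfp36l2 fell from 33.3 and 42.9 to 15.8 and 16.8 CPM (log2 fold change -1.22 ± 0.17, SE) and the RNase gene Zc3h12a fell from 45.3 and 23.6 to 1.52 and 2.15 CPM. The decapping partners split, Dcp1a rising from 31.2 and 43.4 to 72.7 and 68.4 CPM and Dcp2 falling from 89.7 and 75.6 to 42 and 45.1 CPM. Of 63 members 13 were lower and 6 higher (median -0.07), and with library size alone 5 and 19 (median 0.28). Without 6 h replicate 1 or 2, 6 or 4 were lower and 2 or 1 higher, and the higher count was 11 without control replicate 1 and 3 without control replicate 2.

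Mediator, the complex that couples transcription factors to RNA polymerase II, had 8 of 29 subunit genes higher and 4 lower. Med7 rose from 80.1 and 92.2 to 248 and 240.3 CPM, a 2.83-fold change (edgeR adjusted p = 0.000227). Med20 and Med26 rose from 19.6 and 20.1 to 51 and 49.5 CPM and from 22.7 and 20.4 to 49.5 and 53.1 CPM. Control and treated libraries did not overlap for these 3. Polymerase subunit genes were called in 3 of 13 cases, 1 of them higher. With elongation factors the list had 14 higher and 14 lower of 74 (median 0.06), and with library size alone 31 higher and 0 lower (median 0.42). The higher count was 9 without control replicate 2 or either 6 h library, and the lower count 7, 1 and 3 without control replicate 2, 6 h replicate 1 and 6 h replicate 2.

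Metabolic gene groups shared a shift to lower values on the TMM scale. In glycolysis, the glucose transporter gene Slc2a1 fell from 107 and 134 to 54.3 and 58.8 CPM (log2 fold change -1.09 ± 0.16, SE) and the lactate dehydrogenase gene Ldha from 730.3 and 762 to 409.8 and 471 CPM. The hypoxia target Vegfa fell from 21.3 and 21.1 to 5.34 and 4.67 CPM. Pfkfb3, which makes the activator of phosphofructokinase, rose from 1.63 and 2.32 to 7.82 and 12 CPM and was the only higher call of 39 members, with 16 lower (median -0.42, or -0.07 with library size alone, with 4 higher and 5 lower). Among sterol and lipid genes, the fatty acid synthase gene Fasn fell from 45.7 and 45.6 to 20.3 and 21.2 CPM (log2 fold change -1.14 ± 0.14, SE; edgeR adjusted p = 0.00123). The sterol list had 12 of 39 lower and 1 higher (median -0.36, or -0.00 with library size alone, with 4 higher and 6 lower). On leaving out 6 h replicate 1 or 2 the lower counts were 8 or 6 for glycolysis and 7 or 7 for sterols.

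Genes of amino acid metabolism and its stress response changed in both directions. Atf4, the central factor of the amino acid response, rose from 302 and 295 to 466 and 464 CPM (log2 fold change 0.64 ± 0.10, SE). Of genes known as its targets, Trib3 fell from 12.1 and 11.2 to 3.89 and 4.83 CPM, Chac1 from 27.9 and 36.1 to 13 and 12.5 CPM and the glutamine transporter gene Slc38a2 from 323 and 333 to 148 and 151 CPM. No library of one group entered the range of the other in these 4 genes. Of other genes known as targets, Atf3 rose from 3.04 and 1.59 to 7.59 and 6.09 CPM, a call that ended without 6 h replicate 1, and Ddit3 was higher as given above. The list had 12 lower and 5 higher of 38 (median -0.38, or -0.02 with library size alone, with 7 each way). One-carbon enzyme genes were lower in 10 of 24 cases and higher in 1 (median -0.52, or -0.16 with library size alone, with 3 higher and 4 lower), with Shmt1 falling from 70.1 and 86.6 to 30.2 and 24 CPM and Mat2a, of S-adenosylmethionine synthesis, from 781 and 453 to 173 and 173 CPM. In fits without 6 h replicate 2 the lower counts of the lists were 7 and 5, and the first list's higher count was 3, 1 and 2 without control replicate 2, 6 h replicate 1 and 6 h replicate 2. In nucleotide synthesis 12 of 32 were lower and 2 higher (median -0.26, or 0.10 with library size alone, with 3 higher and 1 lower); the pyrimidine enzyme gene Cad fell from 67.8 and 87.8 to 33.7 and 36.8 CPM, and the lower count was 5 or 3 without 6 h replicate 1 or 2. Of 13 polyamine genes 4 were lower and 0 higher (median -0.29, or 0.06 with library size alone, with 3 higher and 0 lower); the lower count was 0 without 6 h replicate 2, 2 without control replicate 1 and 1 without 6 h replicate 1.

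Nuclear genes for the respiratory chain were lower in 51 of 83 cases and higher in 0 (median -0.44). By complex the lower counts were 21 of 37 for complex I, 7 of 9 for complex III, 11 of 15 for complex IV and 9 of 17 for complex V, with medians between -0.46 and -0.40. Ndufa11, a complex I gene, fell from 133 and 127 to 66.9 and 72.5 CPM, and the cytochrome c gene Cycs from 1128 and 1242 to 726 and 781 CPM, without overlap. These changes were small, and with library size alone 5 were lower, 0 higher and the median was -0.09. Leaving out 6 h replicate 1 or 2 left 23 or 8 lower. TCA cycle and mitochondrial import genes were lower in 20 of 50 cases and higher in 2 (median -0.36, or -0.01 with library size alone, with 4 higher and 5 lower), for example the import receptor gene Tomm20, which fell from 700.0 and 781 to 443 and 423 CPM. That lower count was 12 without control replicate 2, 10 without 6 h replicate 1 and 7 without 6 h replicate 2.

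Cell cycle genes were taken by phase. Mitotic genes were lower in 22 of 58 cases and higher in 0 (median -0.33, or 0.02 with library size alone, with 6 lower and 11 higher). The mitotic kinase gene Plk1 fell from 138 and 152 to 63.9 and 59.2 CPM (log2 fold change -1.23 ± 0.12, SE; edgeR adjusted p = 0.000485), the kinetochore gene Nuf2 from 79.8 and 75.1 to 31.8 and 30.9 CPM, and the cyclin gene Ccnb1 from 502 and 501 to 283 and 238 CPM. DNA replication genes went in both directions, with 12 of 55 higher and 7 lower (median 0.00, or 0.36 with library size alone, with 26 higher and 1 lower). Gins3, a subunit gene of the replicative helicase, rose from 28 and 22.5 to 74.1 and 75.2 CPM, and the origin recognition gene Orc5 from 147 and 154 to 289.6 and 268 CPM, while Orc1 fell from 21.8 and 27.7 to 11.7 and 11.2 CPM. Without 6 h replicate 1 or 2, 13 or 7 mitotic genes were lower and 4 or 2 replication genes higher, 4 or 3 replication genes lower, and 3 mitotic genes were higher without control replicate 1.

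Regulators of the G1 phase included losses of both Myc paralogues. Mycn fell from 140.3 and 175 to 63.3 and 62.4 CPM and Myc had a log2 fold change of -1.40. Mga, whose product competes with Myc for Max, rose from 41.3 and 28 to 90.9 and 96.4 CPM. Cdkn2d, a CDK inhibitor gene, rose from 7.26 and 8.43 to 20.3 and 19.5 CPM, and Cdk1 fell from 735 and 742 to 397 and 375 CPM. The list had 13 lower and 6 higher of 48 (median -0.06, or 0.30 with library size alone, with 4 lower and 11 higher), and 7 or 6 lower and 3 higher without 6 h replicate 1 or 2.

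DNA repair genes were higher in 18 of 72 cases (25%, against 14.8% of all genes) and lower in 5. The list median was 0.30, or 0.66 with library size alone, where 33 were higher and 0 lower. Rad52, of homologous recombination, measured 9.78 and 11.5 CPM in control and 27.3 and 28.6 CPM at 6 h. Ercc4, an endonuclease gene of excision repair, measured 16.7 and 20.3 and 42.5 and 43.3 CPM, and the recombination cofactor gene Rad51ap1 22.9 and 28.6 and 50.9 and 49.7 CPM. The 6 h libraries lay above both controls in all 3 genes, with log2 fold changes of 1.40, 1.22 and 0.97. The checkpoint cofactor gene Atrip rose by 1.57. On leaving out 6 h replicate 1 or 2, 9 or 7 were higher and 0 lower, and without control replicate 2, 2 were lower. Apoptosis and p53 genes were balanced at 8 each way of 53 (median -0.08, or 0.27 with library size alone, with 15 higher and 2 lower). Casp2, an initiator caspase gene, rose from 32.7 and 32 to 82 and 82 CPM (log2 fold change 1.34 ± 0.13, SE), and the death receptor adaptor gene Fadd from 7.85 and 5.13 to 18.8 and 21.1 CPM. Plk3 fell from 22.4 and 22.5 to 9.53 and 11.2 CPM. Here 3 were higher and 3 lower without 6 h replicate 2, and 3 lower without 6 h replicate 1.

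Histone genes had the highest median of the 47 lists, 1.51, or 1.87 with library size alone, with 19 higher and 1 lower. Their cluster transcripts normally lack a poly(A) tail, so polyadenylated libraries see only part of them. Of 25 tested clustered genes 14 were called higher and 0 lower, with a median of 2.83 (3.19 with library size alone). Hist1h1c, a linker histone gene, measured 3.55 and 2.32 CPM in control and 30.9 and 36.7 CPM at 6 h. H1f0, a linker histone gene outside the clusters, rose from 33.3 and 33.6 to 153 and 149.6 CPM (log2 fold change 2.18 ± 0.12, SE; edgeR adjusted p = 3.29e-05), and H3f3b, a replication-independent H3 gene, from 932 and 984 to 1400.5 and 1451 CPM. The variant gene H2afz fell from 2199 and 2152 to 1374 and 1373 CPM. Of 63 listed histone genes only 35 could be tested and 10 of these were under the filter level in both controls, 7 of them called higher, so the list's count is in part set by the filter. The list as a whole had 17 higher and 2 lower, and 11 or 10 higher without 6 h replicate 1 or 2.

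Chromatin regulator lists held a few large changes among many small ones. Setd1b, a histone H3 lysine methyltransferase gene (chr5:123142193-123168629, plus strand), fell from 219 and 209 to 33.7 and 41.4 CPM, a log2 fold change of -2.52 ± 0.16 (SE; edgeR adjusted p = 5.51e-05). Men1, the menin gene of related complexes, fell from 59.5 and 65.6 to 36.7 and 32.1 CPM. Kdm6a, a histone H3 lysine demethylase gene, rose from 16.1 and 10.5 to 25.7 and 31.3 CPM, a call that ended without 6 h replicate 2. Polycomb and Trithorax genes were lower in 15 and higher in 5 of 51 cases (median 0.04), but higher in 21 and lower in 6 with library size alone (median 0.40). In the list of histone modifiers the heterochromatin protein gene Cbx5 fell from 182 and 177 to 88.1 and 83.4 CPM, and the demethylase gene Kdm4c rose from 41.8 and 57.6 to 97.3 and 113 CPM, with 9 lower and 6 higher of 73 (median -0.12, or 0.24 with library size alone, with 17 higher and 3 lower). The 17 DNA methylation genes had 2 higher and 3 lower on the TMM scale but 6 higher and 0 lower with library size alone (medians -0.07 and 0.29). In fits without 6 h replicate 1 or 2, 9 or 6 Polycomb and Trithorax genes were lower and 3 or 1 higher, and 9 were higher without control replicate 1. Histone modifier genes were higher in 3 cases without 6 h replicate 1 or 2 and lower in 4 without 6 h replicate 2.

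Pluripotency factors did not move together. Gbx2, a naive-state homeobox gene, fell from 217 and 233 to 48.9 and 54.9 CPM and Tfcp2l1 from 162 and 170.4 to 55.1 and 61.4 CPM, and the naive marker Zfp42 from 727 and 675 to 351 and 359 CPM. Their log2 fold changes were -2.11, -1.51 and -0.98. Zfp281 rose from 189 and 179 to 354 and 426 CPM and Klf2 from 267 and 272 to 425 and 699 CPM. Esrrb and Pou5f1 were not called, at 484 and 526 CPM and 152 and 136 CPM in control and 472 and 503 CPM and 136 and 125 CPM at 6 h. Of 40 naive factors 9 were higher and 11 lower (median -0.11, or 0.24 with library size alone, with 12 higher and 4 lower). Formative and primed markers were equally divided: Otx2 rose from 12 and 2 counts to 155 and 100 counts and Sox3 from 2.37 and 5.74 to 17.1 and 20.9 CPM, while Foxd3 fell from 55.9 and 57.8 to 10.3 and 8.85 CPM and Fgf15 from 21.4 and 14 to 4.82 and 4.56 CPM. That list had 6 higher and 5 lower of 18 (median -0.30, or 0.06 with library size alone, with 7 higher and 3 lower). Without 6 h replicate 1 or 2, the naive counts were 5 or 3 higher and 7 or 5 lower, and the formative ones 4 or 3 higher and 4 or 3 lower, with 3 lower without control replicate 1. The log2 fold change of Otx2 was 4.16 without control replicate 1 and that of Sox3 3.00 without control replicate 2, against 2.84 and 2.29.

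Many zinc finger genes of the Zfp series rose. Of 324 tested genes 123 were higher (38%) and 15 lower, with a median of 0.65 (1.01 with library size alone, with 169 higher and 6 lower). Most encode sequence-specific repressors, many of them KRAB proteins. Between 5 and 20 CPM, 65 of 138 Zfp genes were higher (47.1%), against 17.3% of the 3247 other genes at that level, and the medians were 0.71 and 0.10. Between 20 and 100 CPM the shares were 41.7% of 84 and 16.0% of 3747. Zfp346, which binds double-stranded RNA, rose from 22.4 and 24.7 to 75.9 and 74.2 CPM, Zfp507 from 4.74 and 3.79 to 21 and 19.2 CPM and Zfp534 from 7.18 and 7.69 to 27.7 and 25.1 CPM, with no overlap between groups. On leaving out 6 h replicate 1 or 2 the higher count was 75 or 58 and the lower count 8.

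Krüppel-like factors divided within the family. Klf10, a TGF-β-inducible repressor gene (chr15:38291463-38300706, minus strand), rose from 105 and 97.3 to 626 and 631 CPM, a log2 fold change of 2.63 ± 0.11 (SE; edgeR adjusted p = 7.58e-06). Klf6 rose from 54.6 and 45.9 to 219.8 and 216 CPM and Klf11 from 17 and 22.3 to 65.4 and 65.3 CPM. Klf8 fell from 20.4 and 19.8 to 10.5 and 9.65 CPM. Klf3 and Klf5 fell by 0.63 and 0.61, calls that ended with library size alone and without 6 h replicate 2. With library size alone 5 of 15 Klf genes were higher and 1 lower, against 4 each way with TMM. With the Sp genes the list had 6 higher and 4 lower of 22 (median 0.08, or 0.43 with library size alone, with 8 higher and 1 lower), and 1 lower without 6 h replicate 2. Lineage transcription factors, which specify tissues after pluripotency is lost, were higher in 21 of 55 tested cases and lower in 1 (median 1.19, or 1.54 with library size alone, with 23 higher and 1 lower). Their levels stayed low: Meis2 went from 2.96 and 1.83 to 10 and 9.92 CPM and Foxa1 from 1 and 0 counts to 80 and 79 counts. Of the tested members 13 were under the filter level in both controls and 8 of these were called higher, so the count is in part set by the filter. In fits without 6 h replicate 1 or 2 the higher count was 13 or 11.

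Of 60 cytoskeletal genes 28 were called lower on the TMM scale, 7 of them tubulins. Cells keep tubulin messengers in check by a decay pathway that acts on translating ribosomes. Tubb4b measured 261 and 244 CPM in control and 70.7 and 76.7 CPM at 6 h (log2 fold change -1.78 ± 0.11, SE; edgeR adjusted p = 6.11e-05), and Tuba1c 95.1 and 124 and 43.3 and 40.3 CPM. All 9 tubulin genes of the list had values below 0 and 7 were called lower, with a median of -0.74 (-0.39 and 5 lower with library size alone). The intermediate filament gene Vim fell from 150.1 and 154 to 58.5 and 65.9 CPM (log2 fold change -1.29 ± 0.12, SE). The genes of the small GTPases Rnd3 and RhoB, which act on actin fibres, rose, Rnd3 from 9.92 and 8.43 to 27.5 and 32.9 CPM and Rhob from 10.4 and 8.67 to 26.8 and 27.7 CPM. The list had 28 of 60 lower and 3 higher (median -0.41, or -0.05 with library size alone, with 13 lower and 5 higher), and 16 lower without 6 h replicate 2. Adhesion and matrix genes were lower in 17 of 57 cases and higher in 2 (median -0.30, or 0.05 with library size alone, with 5 higher and 3 lower). The matrix gene Sparc fell from 446 and 464 to 259 and 298 CPM and the basement membrane gene Nid1 from 212 and 241 to 141 and 128 CPM, and the lower count was 8 without control replicate 2 or 6 h replicate 1 and 3 without 6 h replicate 2.

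**Figure D5:**
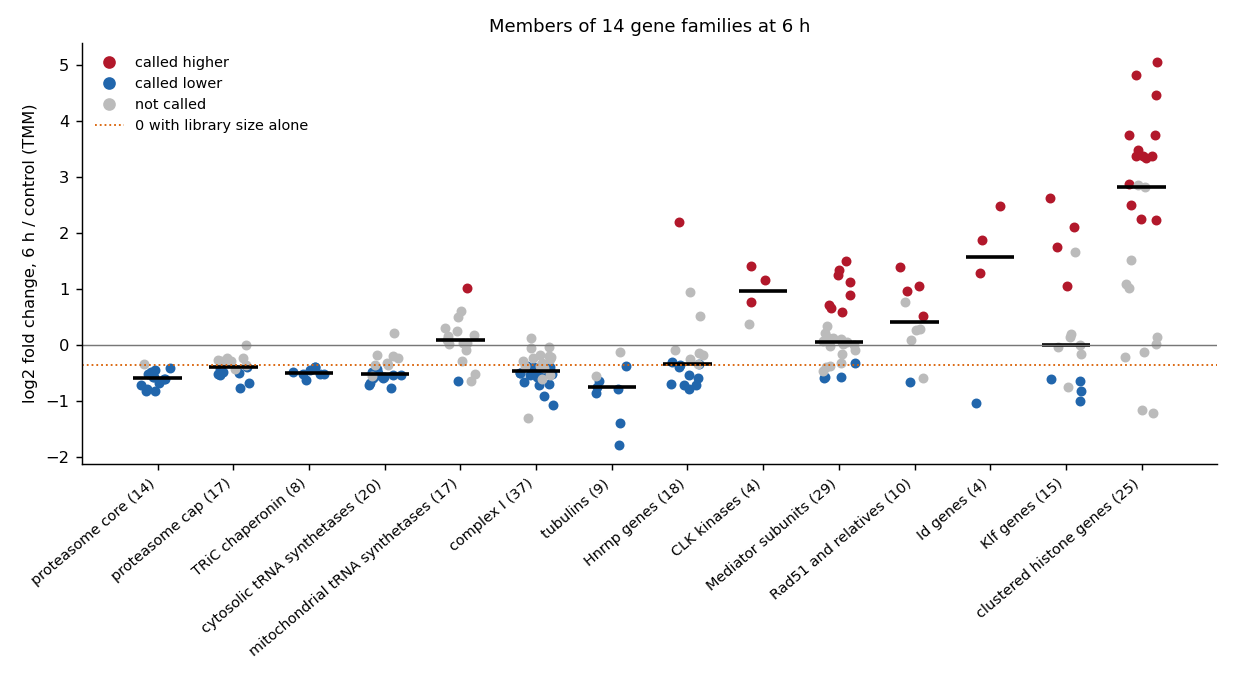
log2 fold change on the TMM scale of each tested member of 14 gene families, red for called higher, blue for called lower and grey for not called, with a black bar at the family median and the number of members in brackets. The orange line marks where 0 would lie with library size alone; the 8 TRiC genes lie between -0.62 and -0.40 on the TMM scale, none of them called lower with library size alone, and clustered histone genes have a median of 2.83.

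Among all called genes with at least 20 CPM in the higher group, those ranked 6 to 15 by rise had mixed roles. Txnip, which binds thioredoxin and limits glucose uptake (chr3:96557957-96561883, plus strand), rose from 97.8 and 119 to 1273 and 1221 CPM (log2 fold change 3.53 ± 0.13, SE; edgeR adjusted p = 6.26e-06). The lysophosphatidic acid receptor genes Lpar4 and Lpar6 rose from 3.48 and 3.05 to 23.9 and 24.1 CPM and from 13 and 9.65 to 70.9 and 81.5 CPM. The ephrin gene Efnb2 rose from 3.11 and 4.88 to 25.8 and 25.1 CPM, and the neural repressor gene Sox21 from 10.5 and 11.2 to 73.2 and 83.2 CPM. The Ras-like genes Rasl11b and Rasl11a moved in opposite directions, Rasl11b from 5.7 and 2.81 to 37.9 and 36.9 CPM and Rasl11a from 48 and 35.5 to 7.85 and 6.01 CPM. Among the genes ranked likewise by fall were the urokinase receptor gene Plaur, from 37.3 and 41.5 to 6.43 and 6.32 CPM, the transcription factor genes Tcf15 and Zbtb7a, with log2 fold changes of -2.25 and -2.32, and the paraspeckle RNA Neat1, from 56.5 and 44.3 to 11.7 and 10.2 CPM. The ranking took only genes whose control and 6 h libraries did not overlap, so non-overlap in these genes was set by the choice. Leaving out control replicate 1 gave Rasl11b a log2 fold change of 3.73 in place of 3.07.

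Among the 10 most abundant genes called in each direction, changes ranged from small to large. Snhg1, a host gene of small nucleolar RNAs, rose from 185 and 200.2 to 1057 and 1101 CPM (log2 fold change 2.49 ± 0.10, SE), and Txnip, described above, was also among them. Fnbp4, a formin-binding protein gene, rose from 495 and 621 to 1244 and 1338 CPM and the splicing-associated gene Luc7l from 481 and 614 to 1048 and 843 CPM. Mcl1, which encodes a short-lived survival protein, rose from 606 and 675 to 870.3 and 925 CPM (0.49), a call that ended without 6 h replicate 2. The nucleolar gene Npm1 fell from 5916 and 6509.5 to 3822 and 3982 CPM and the ferritin gene Ftl1 from 4477 and 4511 to 2788 and 2706 CPM, log2 fold changes of -0.67 and -0.71. Eif5a and Pcna fell by 0.62 and 0.49 on the TMM scale, and neither call held with library size alone.

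Some genes appeared from near absence. In 341 tested genes both control libraries had at most 3 counts, and 95 of these reached 1 CPM in both 6 h libraries, although 2 reached 5 CPM in both. The share called higher is not given as a result, since such genes passed the filter through treated libraries. Ppp1r3c, a glycogen-targeting subunit gene, had 0 and 0 counts in control and 91 and 125 at 6 h. With 3 counts per library as the floor of the controls, it was at least 13.2-fold higher. Dlx2, a homeobox gene, had 0 and 0 counts in control and 124 and 52 at 6 h, at least 10.3-fold higher, and Tnfrsf13c, a TNF receptor family gene, 0 and 0 and 68 and 78, at least 8.89-fold higher. Ptgs2, the inducible prostaglandin synthase gene, had 2 and 2 counts in control and 171 and 180 at 6 h, at least 21.3-fold higher. These 4 genes were chosen after their values were seen. In the opposite direction, 12 tested genes had at most 3 counts in both 6 h libraries.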

How the data were processed

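Polyadenylated RNA of E14 mouse embryonic stem cells was sequenced in 6 libraries, 2 per group. What the authors deposited were raw counts per gene, whole numbers with 1 column per library, per the file headers, and gene symbols were read from the part of the identifier before its chromosome suffix. The genome build was mm10, per the submitters' processing notes. The aligner, the counter, strandedness and the use of molecular identifiers are not given in the sources used here, so overlapping and antisense genes cannot be told apart. Of 17485 rows, 1 held a reporter and was left out.

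The filter (edgeR's filterByExpr) kept genes with at least 10 counts, scaled to the median library size, in 2 libraries and at least 15 counts in all. Counts were scaled by TMM and fitted with edgeR 4.0.16 (quasi-likelihood test, all 3 groups in 1 fit, R 4.3.3). A gene was called at an adjusted p under 0.05 (Benjamini-Hochberg), and SE are those of the log2 fold change. Libraries of a group differed beyond counting noise (chi-square per degree of freedom 27.52 in control and 27.75 at 6 h). Floors of 3 counts and intervals (95%) cover counting error or library spread only. On simulated counts with 200 changed genes a run, over at least 12437 genes for 6 h against control, the test recovered 3.68% of changes of 0.5, 46.2% of 1 and 80.8% of 2 on the log2 scale, and 8.71% of its calls were false. The runs changed far fewer genes than the 3703 called in the data, so these rates do not carry over directly.

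Members and the 47 gene lists were chosen with earlier results of these data known. The named genes were the called genes ranked 6 to 15 each way by fold (at least 20 CPM in the higher group, groups not overlapping, descriptive symbol), the 10 most abundant called genes each way without mitochondrially encoded ones, up to 3 called members per list and direction with the smallest p, and cell type markers, and a few of the genes this rule picks are not reported here. A set of 16 genes was checked further. Of these, Sox7 and Tubb3 were cell type markers, and the rest were outside the rule and named after their values were seen. All 16 kept their call with library size alone and their direction with each library left out. Hnrnpa1, mt-Rnr1, mt-Rnr2, Scarna9, Snora75 and Mir1949 were also named outside the rule and were not part of this check. The call of Hnrnpa1 depended on single libraries, as given above, and mt-Rnr2 was not called. A search of promoters for motifs was not made because too few genes had a promoter sequence in the RefSeq table. Transcript features came from GENCODE M21 (GRCm38), which matched 99.2% of tested genes by symbol. One coding transcript per gene (principal by APPRIS where annotated, then the longest coding sequence) gave its 3′ UTR, searched for ATTTA and TTATTTATT on the transcribed strand only, and every TTATTTATT contains an ATTTA. Alternatives were limma-voom (limma 3.58.1), DESeq2 1.42.0, other scalings, filters and thresholds, a replicate block, thinned libraries and leaving out each library.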

Additional observations from a re-analysis of the deposited data

How the results depend on the processing

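The count of 3703 called genes was lower under stricter rules: 773 genes passed a test against a 1.5-fold change, of which 71.7% were higher, and 1572 passed an adjusted p under 0.01 (edgeR). Leaving out 1 library gave between 1312 and 3578 calls. Scaling by library size alone gave 88.1% higher calls and a median log2 fold change of 0.40. Without a filter on low counts the median was 0.16. The cause of these differences was not tested. The other settings gave between 3201 (only the 4 libraries compared) and 4574 calls (no filter), among them 3619 with limma-voom, 3932 with DESeq2 and 3529 with thinned libraries. With the replicate number as a block (replicate block) 3547 genes were called. Deviations of same-numbered libraries correlated by -0.024 between control and 6 h, by 0.094 between control and 3 h and by 0.017 between 3 h and 6 h. These values show little shared deviation, but they cannot show whether same-numbered libraries came from 1 culture or batch. For named genes, 4497 values under an alternative kept direction and call, 396 kept direction but not the call, and 0 reversed. The control libraries were the shallowest of these 4, so low levels in control limit folds of rare transcripts, and 2 libraries a group limit which small changes could be called.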

Other observations

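Genes of the circadian clock moved in both directions, with 3 of 18 called higher and 4 lower (median -0.13, or 0.23 with library size alone, with 5 higher and 2 lower). Nr1d2, which encodes a repressor of the clock, fell from 60.8 and 48.2 to 23.5 and 31.2 CPM. Hlf, a clock-controlled bZIP factor gene, rose from 0.815 and 0.366 to 6.07 and 8.66 CPM (log2 fold change 3.53, or 4.30 without control replicate 1).

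Counts assigned to Vmn2r55, annotated as a vomeronasal receptor gene, were high, at 493 and 136 CPM in control and 1005 and 1166 CPM at 6 h. Its call as higher ended with DESeq2, with a robust form of the edgeR fit, at an adjusted p under 0.01 and against a 1.5-fold change. The 2 control libraries lay far apart, and the log2 fold change of 1.78 was 2.99 without control replicate 1 and 1.14 without control replicate 2. The 2 ribosomal RNAs of the mitochondrion showed the same kind of spread between controls: mt-Rnr1 had 5625 and 3005 CPM in control and 1082 and 2002 CPM at 6 h.

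Calls also differed by codon composition and gene span, in comparisons that were not matched for level. In the quintile of genes with the lowest GC content at the wobble position of codons (up to 49.25%) 19.1% were called higher and 12.6% lower, with a median of 0.15. In the quintile with the highest GC content (from 70.12%) these were 11.7% and 16.5%, with a median of -0.06. Genomic span showed the lower calls thinning out, from 486 of 2429 genes in the shortest quintile (up to 8236 bases) to 229 of 2430 in the longest.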
